A study of Mus musculus with 16 samples.

Results

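Immediate early genes are transcribed within minutes of a signal, from factors already present in the cell and without new protein synthesis. The 10 followed here, of 11713 genes in the table, were given as a list of symbols: Fos, Fosb, Jun, Junb, Egr1, Egr2, Dusp1, Nr4a1, Ier2 and Myc. All 10 had unique molecular identifiers (UMIs, each counting 1 captured RNA molecule) in both libraries. They were measured in spleen cells of female BALB/cJ mice aged 9 months by CITE-seq, in which a droplet yields polyadenylated RNA and DNA-tagged antibody counts of the same cell. The mice carried no transgene or treatment that the labels name. The cells came from 2 spleens, pressed over a mesh of 40 um and freed of red cells by 5 minutes of lysis, and droplets belong to either of 2 sources named Main1 and Main2. The labels describe 16 samples in 4 groups of 4, RNA and antibody samples of each source, which the tables do not separate, nor do they say which source is which spleen. Each source therefore counts as 1 library here. Every p-value measures only how far differences between gates varied between these libraries, a spread that may be technical.

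Most of these genes respond to the same pair of routes. Growth factor, antigen receptor and stress signals reach serum response factor and its partners through the ERK kinases, and reach CREB through calcium and cyclic AMP. The proteins then act on later genes: Fos and Jun proteins pair to form AP-1, Egr1 and Egr2 are zinc finger activators, and Myc drives growth and ribosome production. In lymphocytes, Nr4a1, Egr1, Egr2 and Myc are known to respond to antigen receptor signals. The AP-1 genes, Egr1, Dusp1 and Ier2 are also known to be raised by the handling of tissue before single-cell capture.

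Upstream sequence was taken from RefSeq, build GRCm38.p6, for the 250 bases before each start of transcription. A start was used for 7 of the 10 genes, and no upstream sequence was taken for Egr1, Ier2 and Myc. This does not show that RefSeq lists no start for them. The sequences below are those of Fos, Jun and Dusp1, whose levels the results turn on, and of Egr2, shown for its CArG box, written 5′ to 3′ on the gene's strand. Capitals mark letters found by search on both strands: TGACG, the core of a CREB site; TGACGTCA, the full site, which contains that core; TGACATCA, a related AP-1 site; TATAAA; and the CArG box, the serum response factor site. Fos is shown at chr12:85473640-85473889 on the plus strand, and Jun at chr4:95052223-95052472 on the minus strand. Dusp1, at chr17:26508523-26508722 on the minus strand, is cut to 200 bases, and Egr2, at chr10:67537789-67537818 on the plus strand, to 30 bases around its sites.
Fos: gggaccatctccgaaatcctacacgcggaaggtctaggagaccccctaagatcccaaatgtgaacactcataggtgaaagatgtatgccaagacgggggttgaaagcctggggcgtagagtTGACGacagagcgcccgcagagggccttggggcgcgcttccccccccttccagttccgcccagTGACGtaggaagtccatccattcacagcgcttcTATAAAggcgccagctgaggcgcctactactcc
Jun: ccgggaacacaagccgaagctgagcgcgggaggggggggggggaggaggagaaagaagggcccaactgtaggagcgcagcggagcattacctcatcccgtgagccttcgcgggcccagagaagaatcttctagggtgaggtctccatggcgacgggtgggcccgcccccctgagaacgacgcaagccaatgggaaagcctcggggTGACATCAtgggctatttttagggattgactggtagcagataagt
Dusp1: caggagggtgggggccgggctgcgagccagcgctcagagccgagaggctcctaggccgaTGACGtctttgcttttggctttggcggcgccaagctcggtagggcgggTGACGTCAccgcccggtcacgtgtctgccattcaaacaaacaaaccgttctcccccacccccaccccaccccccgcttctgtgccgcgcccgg
Egr2: tcctcagtCCATATATGGgcagcgaCGTCA
The Fos stretch held TGACG at 129 and 66 bases before the start and TATAAA at 33 bases before it. The Jun stretch held TGACATCA at 45 bases before the start. In Dusp1 the full TGACGTCA lay 143 bases before the start, and the core was also present at 191 and 140 bases before it, the last on the other strand of the full site. Egr2 had 5 listed starts, 4 of them with a CArG box, which lay 72 bases before the start used here. Among 32851 promoters of the same length, 1.47% held a CArG box, 1.55% held TGACGTCA, 2.93% TGACATCA, 17.8% TGACG and 12.4% TATAAA. A match describes letters and is not evidence of binding.

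The table held 7097 droplets, 3179 of Main1 and 3918 of Main2, with 1098 to 51405 UMIs each and medians of 1789 and 1778 UMIs. The libraries shared 14 cell barcodes. Droplets that held more than 1 cell were not removed; 330 carried both CD3 and a B-lineage antigen and stayed outside the B and T gates. Classes were gated on antibodies alone, so no gene below took part in its own gate. The marginal zone gate required CD21/35 in its top 25% among B droplets and low IgD, the follicular gate high IgD and lower CD21/35, and the remainder is called other B. The fitted gates numbered 11 and ran from 57 droplets (CD8 T) to 3126 (other B), with 1826 in the follicular and 473 in the marginal zone gate. Markers of each named class were present in its gate: for example, the 5 marginal zone markers summed to 3066 and 2804 CPM (UMIs of the gene scaled to 1000000 UMIs of the gate) in that gate in Main1 and Main2, against 934 and 939 CPM in the follicular gate. Some gates also held RNA of other cells. The 5 hemoglobin and erythroid markers reached 40460 and 87946 CPM in the macrophage gate, beside 11960 and 7195 CPM of its 5 own markers. The 4 monocyte markers were at 1629 and 1171 CPM in the macrophage gate, against 3109 and 4555 CPM in the monocyte gate. The 6 dendritic markers were at 271 CPM there in Main1, with Flt3, Zbtb46, Xcr1 and Clec9a at 0, and at 327 CPM in Main2. In the monocyte gate the 4 NK markers reached 1655 and 3124 CPM, and plasma cell markers 10506 and 3939 CPM, Sdc1 being at 0 in Main1. The 6 dendritic markers all had UMIs in the dendritic gate, at 502 and 798 CPM. The part of RNA from these other cells in the results was not tested.

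Among the AP-1 genes Fos, Jun, Junb and Fosb, only Fos set all 4 myeloid gates apart from the lymphoid ones. Fos, the AP-1 subunit, was highest in the monocyte gate, at 477 CPM in Main1 and 952 CPM in Main2. It followed in the dendritic gate (372 and 737 CPM), the macrophage gate (221 and 508 CPM) and the neutrophil gate (215 and 476 CPM). Neighbours among these 4 gates overlapped in their library values, though their order was the same within each library. Differences among the 4 were not tested. All 4 lay above every lymphoid gate and above the erythroid gate, where Fos was at 4.85 and 17.1 CPM. In the follicular gate Fos was at 60.8 and 127 CPM, and in the other B gate at 63.1 and 143 CPM. Jun, its partner, had another order: 430 and 542 CPM in the dendritic gate and 288 and 361 CPM in the macrophage gate, with library ranges that did not overlap. It was at 121 and 181 CPM in the monocyte gate, and it had 5 and 0 UMIs in the neutrophil gate. Junb, an AP-1 subunit, ran from 137 and 214 CPM in the marginal zone gate to 717 and 947 CPM in the dendritic gate. The erythroid gate lay below this range at 67.9 and 41.8 CPM, and the NK gate was at 367 and 1069.9 CPM. Fosb, a further Fos family gene, had 264 UMIs in all. Its levels were highest in the dendritic gate, at 58.7 and 51.2 CPM, and in the macrophage gate, at 33.9 and 51.6 CPM, which overlapped.

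**Figure D1:**
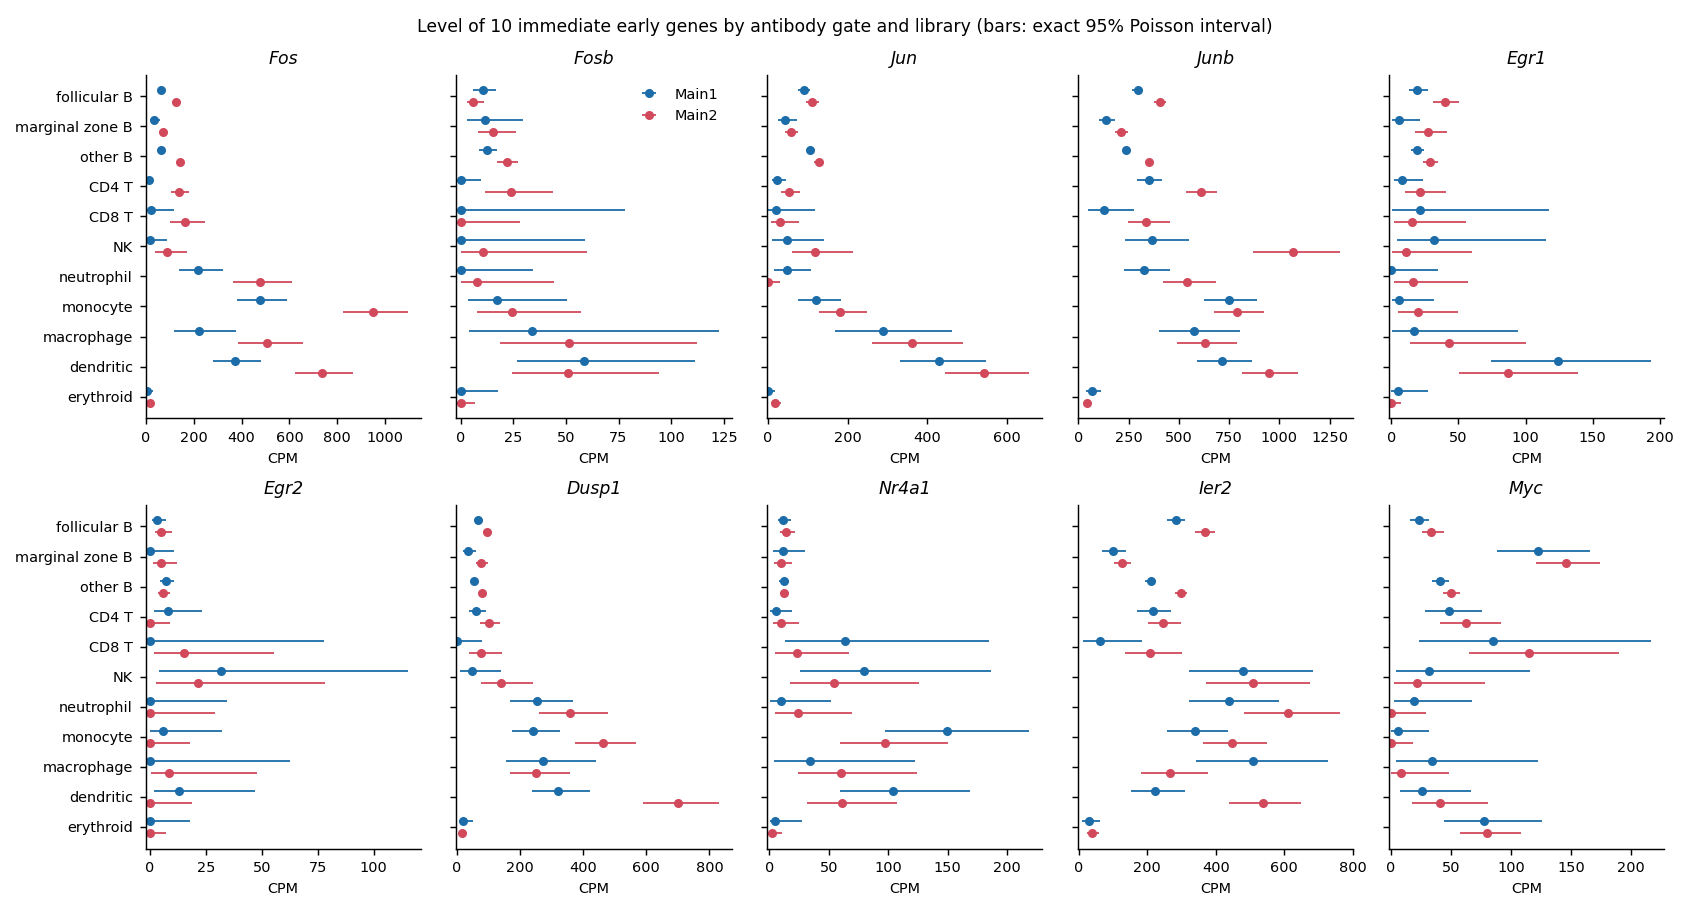
Level in CPM (x axis, linear) of the 10 genes in 11 antibody gates (y axis) for Main1 (blue) and Main2 (red), with exact 95% Poisson intervals that cover counting error only. Fos lies between 215 and 952 CPM in the neutrophil, monocyte, macrophage and dendritic gates, and Myc is highest in the marginal zone gate at 122 and 146 CPM.

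The plot of levels by gate also shows the remaining genes, which did not share one order. Dusp1, the phosphatase that switches off MAP kinases, was at 319 and 701 CPM in the dendritic gate and at 241 and 464 CPM in the monocyte gate. It stood at 253 and 357 CPM in the neutrophil gate and 271 and 250 CPM in the macrophage gate. These 4 gates overlapped with their neighbours in order and lay above all others. Egr1 was at 124 and 87.0 CPM in the dendritic gate, above the next gate, the macrophage gate, at 17.0 and 43.0 CPM. Nr4a1, an orphan nuclear receptor, was highest in the monocyte gate (149 and 97.6 CPM) and the dendritic gate (104 and 61.4 CPM). The NK gate reached 79.9 and 54.0 CPM of Nr4a1, but without its droplet richest in Nr4a1 in each library these became 16.4 and 0 CPM. Ier2, a nuclear protein of uncertain function, was highest in the neutrophil gate (440 and 611 CPM) and the NK gate (479 and 508 CPM). Egr2 had 103 UMIs in all, and at most 3 in either library of any fitted gate other than the B gates. Myc ran against the rest: it was highest in the marginal zone gate at 122 and 146 CPM, then in the CD8 T gate at 84.5 and 115 CPM and in the erythroid gate at 77.6 and 79.8 CPM, each range apart from the next. The CD8 T levels of Myc rest on 4 and 15 UMIs. Without the droplet richest in Myc in each library they became 44.6 and 71.2 CPM, below the erythroid values. The place of the CD8 T gate in this order thus rests on single droplets. In the monocyte gate Myc had 1 UMI.

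Marginal zone B cells sit at the edge of the white pulp and answer blood-borne antigen quickly. Against follicular B cells, Myc was higher and the AP-1 genes Fos, Jun and Junb were lower. Myc was at 122 and 146 CPM in the marginal zone gate and at 23.0 and 33.7 CPM in the follicular gate, and the groups did not overlap. The log2 fold was 2.32 ± 0.20 (SE; 2 libraries per gate; edgeR's quasi-likelihood test, Benjamini-Hochberg adjusted p = 3.39e-15). Ier2 was at 99.1 and 125 CPM against 283 and 368 CPM, again without overlap, and fell by 1.46 ± 0.17 on the log2 scale (edgeR, adjusted p = 1.48e-10). Junb, at 137 and 214 against 295 and 406 CPM, fell by 0.91 ± 0.20 (edgeR, adjusted p = 0.00133). Jun, at 43.7 and 57.3 against 89.4 and 110 CPM, fell by 0.89 ± 0.23 (edgeR, adjusted p = 0.00835). The groups of these AP-1 subunits did not overlap for either gene. Fos was at 32.1 and 69.3 CPM against 60.8 and 127 CPM, which overlapped, Main2 being higher in both gates. Within each library Fos was lower in the marginal zone gate, and it fell by 0.82 ± 0.23 in the edgeR fit (adjusted p = 0.0162). In all, 5 of the 10 genes passed the threshold of 0.05, where 5.37% of 9575 tested genes did. Egr1, Egr2, Dusp1, Nr4a1 and Fosb did not pass. Fosb differed in the other direction from Fos, Jun and Junb, by 0.75 ± 0.54, at 11.7 and 15.5 against 10.6 and 6.13 CPM. Of 17 further immediate early or dissociation-associated genes tested, 0 rose and 7 fell. Sgk1, a kinase, fell by 3.27, with 2 UMIs in the marginal zone gate against 62. Btg2, an antiproliferative gene, fell by 0.89, Klf6 by 0.78 and Jund, an AP-1 subunit, by 0.77. Of 14 genes known as Myc targets, 3 rose: Odc1, for polyamine synthesis (log2 fold 0.95), Npm1, a nucleolar protein (0.71), and the cytokine Mif (0.59). Within the marginal zone gate these 3 were also at least 1.5-fold higher in Main2 than in Main1. They were among 7 of 13 such targets with 50 or more UMIs there, where 8.16% of genes passed that size. The activation markers Cd83 and Cd86 moved apart, by -1.05 and 0.90. Only the Myc and Ier2 calls held without the library block, where 2 genes passed, and with either library of both gates left out, where 2 passed each time.

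CD4 T cells held less Jun and more Myc than follicular B cells. Jun was at 24.0 and 52.7 CPM in the CD4 T gate against 89.4 and 110 CPM, with no overlap, and fell by 1.40 ± 0.28 on the log2 scale (edgeR, adjusted p = 6.56e-05). Myc, at 48.0 and 62.3 CPM against 23.0 and 33.7 CPM, rose by 0.92 ± 0.30 (edgeR, adjusted p = 0.0224). Ier2, at 216 and 247 CPM against 283 and 368 CPM, fell by 0.53 ± 0.16 (edgeR, adjusted p = 0.00929). These 3 of 10 calls stand beside 15.1% of all tested genes, and without the library block 1 of them, Jun, passed. Fos did not pass, with a log2 difference of -0.34 (edgeR, adjusted p = 0.424), and the libraries went apart: CD4 T over follicular was 0.219 in Main1 (13.3 against 60.8 CPM) and 1.10 in Main2 (139 against 127 CPM). With Main2 left out of both gates the Fos difference was -2.23, among droplets under 4000 UMIs it was -1.28, and with IgM and IgD added to the B-lineage antigens it was -0.67; all of these passed the test. With Main1 left out it was 0.06 and did not pass. Among the 17 further immediate early genes 3 rose and 4 fell, the largest being Socs3, a feedback inhibitor of cytokine signals (2.73), Sgk1 (1.49), the phosphatase Dusp2 (-1.28) and Ier5 (-1.19). Of 17 lymphocyte activation genes, 7 rose and 5 fell. The T cell costimulatory receptors Icos (6.09), Tnfrsf4 (6.02) and Tnfrsf9 (5.84) had the largest folds. The size of these folds rests on 2, 8 and 1 UMIs in the follicular gate, against 44, 140 and 23 in the CD4 T gate.

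The Fos signal of the CD4 T gate in Main2 came from few droplets. Its 58 UMIs lay in 18 of 163 droplets, where UMIs spread in proportion to depth would have reached 46.2 droplets, a ratio of 0.390. The median gene of that gate and library had a ratio of 0.997. Of these UMIs, 44 were in the upper tertile of the gate by CD44 antibody, CD44 being a surface protein raised on antigen-experienced T cells. They lay in 10 of 59 droplets, and 13 were in a single droplet, without which the level went from 208 to 157 CPM. That droplet held 14252 UMIs of all genes, where the median of the CD4 T gate in Main2 was 2021 UMIs. Whether it held more than 1 cell was not tested. In the other subgates Fos had 2 UMIs (CD44-high, Main1), 1 UMI (CD44-low, Main1) and 3 UMIs (CD44-low, Main2). Fos thus reached the minimum of 50 UMIs for a test only through the CD44-high subgate, and no test of it is given. Junb, at 428 and 698 CPM against 292 and 387 CPM, rose by 0.73 ± 0.23 (edgeR, adjusted p = 0.0174), where 11.4% of 1435 genes were called and 5.92% were higher. The Junb call was lost with DESeq2 and without the library block, and Ier2 did not pass. CD44-high droplets were also deeper, with a median of 2586 UMIs against 1833 UMIs, and held 4338.5 against 1851 antibody counts at the median. Markers of other cells moved with the library in the CD4 T gate. The monocyte markers went from 139 CPM with 2 of 4 detected (Csf1r and F13a1 at 0) in Main1 to 352 CPM with 4 of 4 in Main2. The 3 plasma cell markers went from 144 CPM, with Sdc1 at 0, to 5812 CPM. Others went down, the erythroid markers from 6304 to 189 CPM and the NK markers from 216 to 40.7 CPM, with Prf1 at 0 in Main2. Without the 15 of 163 Main2 droplets and 7 of 161 Main1 droplets that held a UMI of 13 monocyte, macrophage or dendritic markers, Fos was at 14.1 CPM in Main1 and 96.2 CPM in Main2.

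Between the CD8 T and CD4 T gates 0 of the 10 genes passed edgeR's test, where 0.407% of tested genes were called. At an unadjusted p under 0.05 there were 3 members, beside 710 of all 9575 genes, and DESeq2 called 0 members. Junb came nearest, at 127 and 338 CPM in the CD8 T gate against 349 and 608 CPM in the CD4 T gate, a log2 difference of -1.04 ± 0.28 (adjusted p = 0.0588), and passed under 4 of the alternatives. The gate held 15 and 42 droplets, and Nr4a1 in Main1 came from 3 UMIs of 1 droplet. Between the lowest and the highest tertile of the follicular gate by IgM, which is known to fall on B cells that bind self-antigen, 0 of 7 tested members passed edgeR's test and 0.945% of 4658 genes did. None of the 7 had an unadjusted p under 0.05 and DESeq2 called 0. Nr4a1, with 5 and 5 UMIs in the IgM-low and 11 and 8 in the IgM-high subgate, was too low to be tested.

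Monocytes had high Fos, Nr4a1 and Dusp1 and almost no Myc. Against the follicular gate, Fos (477 and 952 against 60.8 and 127 CPM) rose by a log2 fold of 2.86 ± 0.17 (edgeR, adjusted p = 7.98e-25). Nr4a1, at 149 and 97.6 against 11.8 and 14.1 CPM, rose by 3.15 ± 0.36 (edgeR, adjusted p = 1.51e-11). Nr4a1 is known as the factor that patrolling monocytes depend on. The monocyte gate took droplets positive for both CD11b and Ly6C, and whether it held patrolling monocytes was not tested. Dusp1 rose by 2.05 ± 0.20 (edgeR, adjusted p = 2.89e-14) and Junb by 1.08 ± 0.20 (edgeR, adjusted p = 6.92e-06), both with groups that did not overlap. Myc fell, with 1 UMI against 92; its level was 2.64 CPM (exact 95% Poisson interval 0.0668 to 14.7) against 28.4 CPM (22.9 to 34.8). The Myc call was lost with DESeq2 and with Main2 left out. These 5 of 10 calls stand beside 20.4% of all tested genes. Leaving droplets with 5 or more NKp46 counts out of the monocyte gate left the same number called, with Fos at 2.99 and Nr4a1 at 3.25. Of 17 further immediate early genes, 6 rose and 3 fell, among them Klf4, a factor needed for monocytes (4.26), Sgk1 (2.28), Socs3 (1.83) and Dusp2 (-2.23). Of the 14 Myc targets 0 rose and 6 fell.

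Neutrophils had high Fos and Dusp1 and few Jun UMIs. Fos, at 215 and 476 CPM, rose by 2.21 ± 0.25 (edgeR, adjusted p = 4.74e-12) and Dusp1, at 253 and 357 CPM, by 2.25 ± 0.25 (edgeR, adjusted p = 1.03e-11) over the follicular gate. Ier2, at 440 and 611 CPM, rose by 1.03 ± 0.19 (edgeR, adjusted p = 5.80e-06). The groups did not overlap for these 3 genes. Junb, at 328 and 539 CPM, overlapped with the follicular gate at 295 and 406 CPM, and rose by 0.64 ± 0.23 (edgeR, adjusted p = 0.0399). Jun, at 46.8 and 0 CPM, fell by 1.88 ± 0.58 (edgeR, adjusted p = 0.0119). In Main1 alone the Jun ratio to the follicular gate was 0.524, with a counting interval of 0.168 to 1.25 that held 1. The Junb call was lost under 6 of the alternatives and the Jun call, which rests on 5 UMIs, under 4. The 5 calls stand beside 18.7% of all tested genes. Erythroid markers were at 25235 CPM in this gate in Main1 and at 159 CPM in Main2; their part in the result was not tested. Of 9 heat shock genes tested 6 fell and 0 rose, and of 14 Myc targets 9 fell and 0 rose. Over all genes the median log2 difference was -0.59 in this comparison, so that most genes lay below the follicular gate.

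Macrophages of the red pulp, which clear old red cells, held more Fos, Jun and Dusp1 than follicular B cells. Fos, at 221 and 508 CPM, rose by 1.86 ± 0.26 (edgeR, adjusted p = 8.53e-09). Jun, at 288 and 361 CPM, rose by 1.59 ± 0.27 (edgeR, adjusted p = 2.66e-06). Dusp1, at 271 and 250 CPM, rose by 1.47 ± 0.29 (edgeR, adjusted p = 6.80e-05). All 3 lay above the follicular gate in both libraries without overlap. Fosb, with 8 UMIs, and Nr4a1, with 9 UMIs, rose by 2.24 ± 0.78 (adjusted p = 0.0410) and 1.87 ± 0.65 (adjusted p = 0.0409) by edgeR. The 5 calls, all higher, stand beside 13.8% of all tested genes called and 7.23% called higher, and with Main2 left out 1 of them, Dusp1, passed. The Fosb call was also lost without the library block and with either other gate rule, and the Nr4a1 call with no filter, with log-ratios within each droplet and with Main1 left out. Of the 17 further immediate early genes 0 rose and 1, Ier5, fell (-1.18). Of 17 activation genes 3 rose and 4 fell. The chemokines Ccl3, with 40 UMIs here and 0 in the follicular gate, and Ccl4 (5.05, with 12 and 6 UMIs) rose. The early activation antigen Cd69 (-3.90, with 2 and 500 UMIs) and the receptor Slamf1 (-3.16, with 1 and 156 UMIs) fell.

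Dendritic cells, which carry antigen to T cells, had the most calls of the comparisons run. Against the follicular gate 7 of 10 genes rose and 0 fell, where 14.7% of tested genes were called and 8.26% rose. Dusp1 rose by 2.64 ± 0.19 (adjusted p = 8.53e-21), Fos by 2.53 ± 0.19 (adjusted p = 5.23e-20) and Jun by 2.26 ± 0.19 (adjusted p = 5.21e-17), all by edgeR and with no overlap of the groups. Fosb (2.63 ± 0.56), Nr4a1 (2.60 ± 0.42), Egr1 (1.76 ± 0.36) and Junb (1.22 ± 0.20) also rose, with adjusted p from 5.76e-07 to 1.87e-04 by edgeR. Egr1 was at 124 and 87.0 CPM against 19.2 and 39.8 CPM; it did not pass in Main2 alone, where its difference was 1.12. Ier2, Myc and Egr2 did not pass. The median of the 10 log2 differences was 2.0, beside -0.17 over all genes tested. Of 17 further immediate early genes 8 rose and 1 fell, among them Klf4 (3.06), Sgk1 (2.14), Gadd45b, a stress gene (1.51), and Dusp2 (-1.58). Of 17 activation genes 8 rose and 2 fell, including Traf1, a target of NF-kappaB (3.08), with 79 UMIs. Hspa1a, the inducible heat shock protein, rose by 3.64, from 34 UMIs in the follicular gate at 10.5 CPM to 41 UMIs at 118 CPM. Of 14 Myc targets 0 rose and 3 fell. Since marginal zone, CD4 T and myeloid gates were all set against the same follicular droplets, their differences share that control and are given side by side, not as separate evidence.

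**Figure D2:**
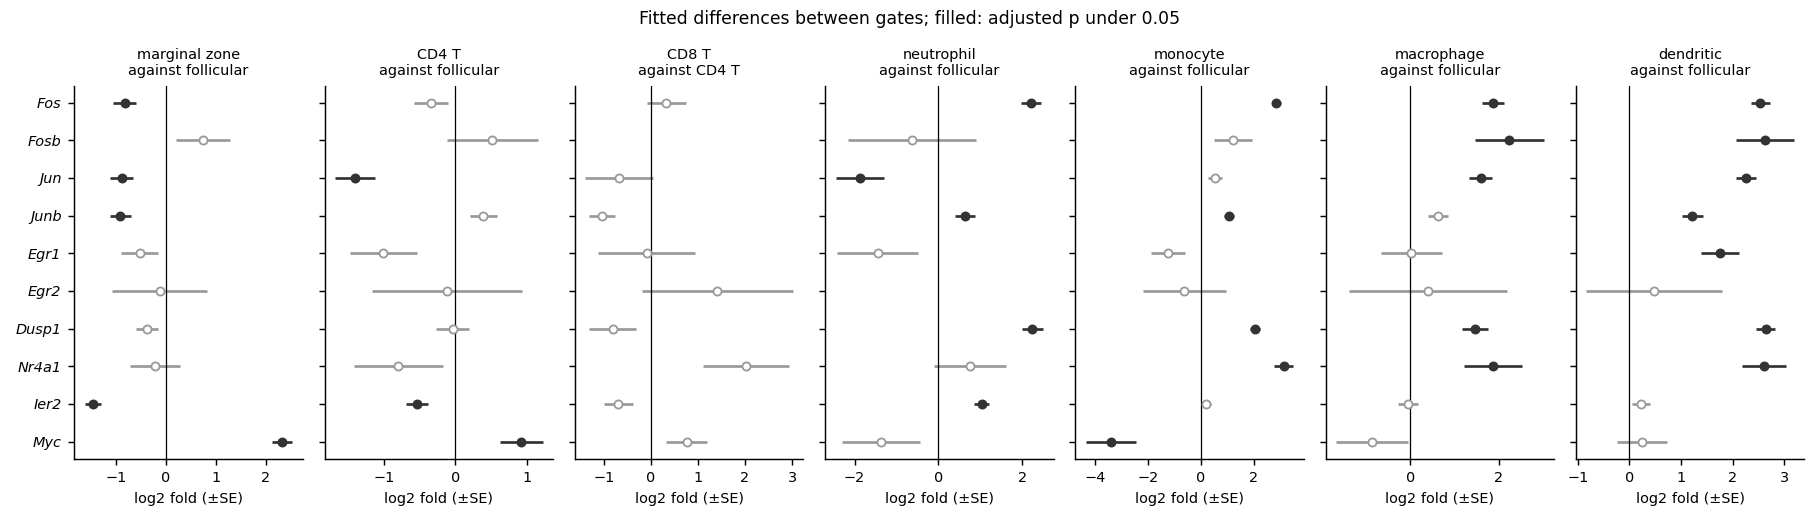
Fitted log2 folds (x axis, with bars of 1 SE) of the 10 genes in 7 comparisons between gates; filled points have an edgeR adjusted p under 0.05, and genes with 0 UMIs in a gate are not drawn. Fos is filled at 2.21, 2.86, 1.86 and 2.53 in the 4 myeloid panels, and Myc at 2.32 in the marginal zone panel.

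Between the libraries, Fos was higher in Main2 in all 11 gates, by at least 1.5-fold in each. With 1 library on each side no test is possible, and intervals below are exact and cover counting error only. That size was passed in the same direction by 2.68% of genes with enough UMIs in the follicular gate, 8.16% in the marginal zone gate and 2.43% in the other B gate. The background was 5.4% in the CD4 T gate, 15.2% in the CD8 T gate and 10.4% in the NK gate. It was 8.49% for neutrophils, 7.44% for monocytes, 7.4% for macrophages, 6.97% for dendritic cells and 27.2% for the erythroid gate, whose median depth was 3123 UMIs in Main1 and 15534 UMIs in Main2. Fos was at 73.7 CPM in Main1 and 162 CPM in Main2 over all droplets, a ratio of 2.19 (95% interval 2.00 to 2.41). These background shares are over genes with 50 or more UMIs in the gate, and Fos, with 22 UMIs in the CD8 T, 9 in the NK and 10 in the erythroid gate, is not among them there. Within gates the ratio of Fos ran from 1.98 in the dendritic gate to 10.4 in the CD4 T gate, and its interval lay above 1 in 9 gates. In the follicular gate it was 2.08 (1.63 to 2.68), in the marginal zone gate 2.16 (1.12 to 4.57) and in the monocyte gate 2.00 (1.54 to 2.61). The NK and erythroid gates had 1 UMI in Main1 and intervals that held 1. In the B gates, whose droplets with myeloid marker UMIs made up 7.53% to 11.7%, leaving those droplets out gave ratios of 2.42 (follicular), 1.95 (marginal zone) and 2.18 (other B). In the NK gate the same step gave 1.39, and in the CD8 T gate it left 0 Fos UMIs in Main1 and 5 in Main2. Monocyte markers in the CD8 T gate were at 127 CPM in Main1, with Ccr2, Csf1r and F13a1 at 0, and at 822 CPM in Main2, with 4 of 4 detected.

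Over all droplets the other members had smaller ratios between the libraries than Fos. Over all droplets 3 of 10 were at least 1.5-fold higher in Main2, namely Fos, Egr1 (18.7 and 31.0 CPM) and Dusp1 (65.7 and 107 CPM), and 0 were in Main1. Among 10053 genes with enough UMIs, 3.32% were at least 1.5-fold higher in Main2 and 3.06% in Main1. Fos ranked 87th of these 10053 by its ratio, Egr1 ranked 223rd and Dusp1 233rd. Junb was higher in Main2 in 10 of 11 gates, with an interval above 1 in 8, and its ratio over all droplets was 1.47 (1.39 to 1.54). Dusp1 was higher in Main2 in 9 gates, 5 with an interval above 1, Ier2 in 10 gates, 4 with such an interval, and Jun in 10 gates, 1 with such an interval. Egr1 was 2.07 times as high in Main2 in the follicular gate (1.33 to 3.29) and 0.702 times as high in the dendritic gate (0.343 to 1.43). Of the genes tied to antigen receptor signals, Nr4a1 was at 17.0 and 16.1 CPM over all droplets, and Egr2 at 6.03 and 5.41 CPM. For both, the interval held 1 in every gate, which does not show that the libraries were alike; for Nr4a1 over all droplets it ran from 0.753 to 1.20. Myc, at 43.9 and 56.5 CPM over all droplets, had a ratio of 1.29 (1.12 to 1.47), and an interval that held 1 in each of the 11 gates. Over all B gates together the Myc ratio was 1.44 (1.21 to 1.72). The marginal zone gate, highest in Myc, made up 4.69% of Main1 and 8.27% of Main2 droplets. The part of this mix in the Myc ratios was not tested.

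Related genes had other ratios between the libraries than Fos. Of 19 further immediate early genes with enough UMIs, 1 was at least 1.5-fold higher in Main2 (Ier3, 2.26 and 3.93 CPM) and 2 were in Main1 (Dusp5, 11.6 and 5.41 CPM; Jund, 234 and 115 CPM). Their median log2 ratio was -0.06, that of the 10 members 0.47 and that of all genes -0.02. Heat shock genes lay the other way: 6 of 10 were at least 1.5-fold higher in Main1 and 0 in Main2. Hspa1a was at 21.2 CPM in Main1 and 2.95 CPM in Main2, and Hspa8, the constitutive member, at 1484 and 860 CPM. Dnaja1, a cochaperone, was higher in Main1 in 11 of 11 gates, by 1.23 to 2.12 times, and Hspa8 in 10. Activation markers went both ways. Cd83 was at 135 and 113 CPM over all droplets and was higher in Main1 in 9 gates, while Cd69 was at 87.1 and 116 CPM and was higher in Main2 in 7 gates, and Cd86 was at 23.5 and 30.2 CPM. Of 18 activation genes with enough UMIs 0 were at least 1.5-fold higher in Main2 over all droplets and 1, Tnfrsf4, was in Main1. Source, spleen and any handling of the 2 sources cannot be told apart.

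**Figure D3:**
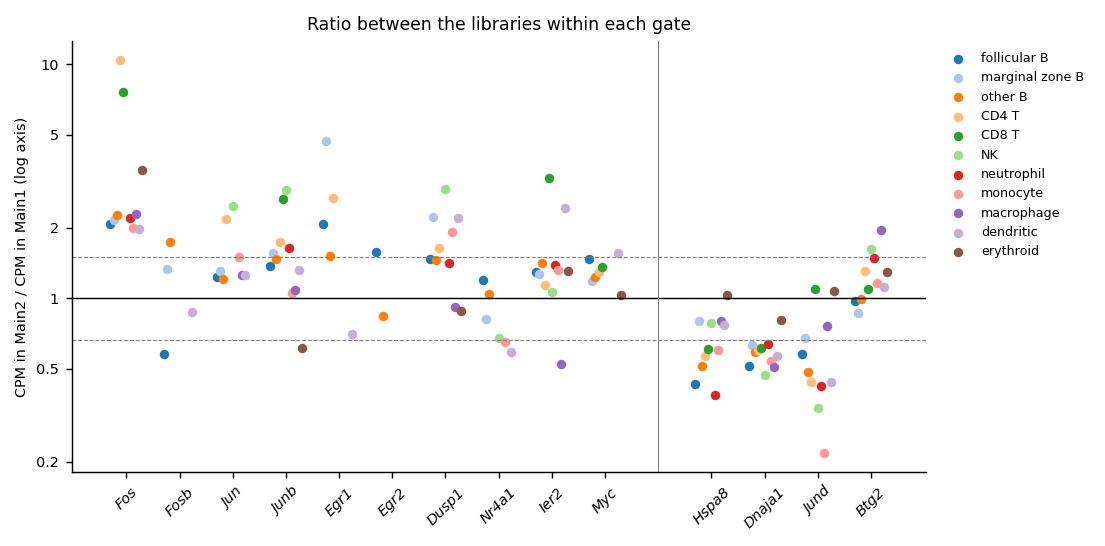
Ratio of the Main2 level to the Main1 level (y axis, log scale) for the 10 genes and, right of the grey line, 4 related genes; each point is 1 gate with UMIs in both libraries and 10 or more in all, and dashed lines mark 1.5-fold either way. Fos lies between 1.98 and 10.4 in every gate drawn, and Dnaja1 lies below 1 in every gate drawn.

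How a gene's UMIs spread over droplets differed among the members. In the follicular gate of Main2, the 207 Fos UMIs lay in 144 droplets where a spread in proportion to depth would have given 183.61, a ratio of 0.784; only 0.520% of 3655 genes in that gate had a lower ratio. In Main1 the Fos ratio was 0.849, and the median over genes was 0.996 and 0.998. Junb had ratios of 0.873 and 0.855, while Ier2, at 0.973 and 0.961, was nearer to an even spread. In the other B gate, Fos had ratios of 0.737 and 0.714 and Jun 0.809 and 0.700. The marginal zone gate of Main2 showed the same for Myc, with 122 UMIs in 73 droplets and a ratio of 0.758, where Fos had 0.934. Fos molecules in follicular and other B droplets, and Myc molecules in marginal zone droplets of Main2, were gathered in fewer droplets than depth alone gives.

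Deep and shallow droplets were made comparable by thinning each to 1000 UMIs, which all droplets reached. The share of droplets with a Fos UMI was then 39.3% in the monocyte gate, 33.1% in the dendritic gate, 31.3% in the neutrophil gate and 22.1% in the macrophage gate, against 7.87% in the follicular gate and 3.50% in the CD4 T gate. Before thinning these shares were 58.9%, 54.5%, 45.6%, 33.8%, 12.2% and 7.10%. The erythroid gate had a thinned share of 1.89%, and of 14.3% before thinning, at a median of 4912 UMIs against 1554.5 in the follicular gate. The part of free RNA in these shares was not tested. At least 1 of the 10 genes was seen, at 1000 UMIs, in 59.0% of follicular, 46.0% of marginal zone, 80.6% of monocyte and 81.9% of dendritic droplets. The share was 55.8% for macrophages, close to the B gates although their Fos level was higher.

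Droplets with many members at once made up a larger share of the dendritic, monocyte and macrophage gates than of the B gates. At full depth 255 droplets held UMIs of 5 or more of the 10 genes: 84 were in the B gates, 61 were ungated, 45 dendritic, 29 monocyte, 9 macrophage and 3 neutrophil, and the others lay in the T, NK and erythroid gates. As a share of the gate, 40.2% of dendritic droplets held UMIs of 5 or more of the 10 genes, 26.0% in Main1 and 51.6% in Main2. The monocyte gate had 22.5%, the macrophage gate 12.2%, and all B gates together 1.55% (0.877% and 2.08%). Macrophage droplets were split, with 35.1% holding 0 of the genes. In the B gates the 5% of droplets richest in these genes held 25.2% of their UMIs and 9.38% of all UMIs. The median droplet held 1 member in the B, CD4 T and CD8 T gates. It held 2 in the remaining T droplets, at a median depth of 4035 UMIs. In the dendritic gate, whose median depth of 2663 UMIs was above that of the follicular gate, it held 4.

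**Figure D4:**
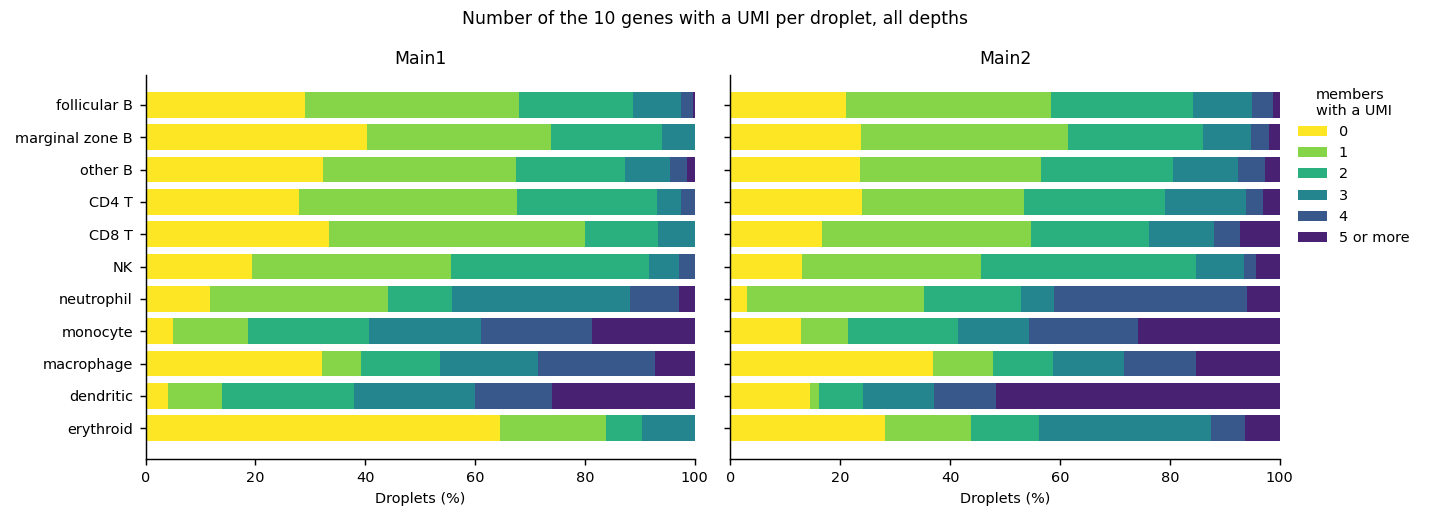
Share of droplets (x axis, percent) by how many of the 10 genes had a UMI, at full depth, for 11 gates in Main1 (left) and Main2 (right). The class of 5 or more genes (dark) takes 26.0% and 51.6% of dendritic droplets and under 3% of droplets in each B gate.

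In the other B gate the 3 pairs of members found together most often, relative to their shares, came from Egr1, Egr2, Nr4a1 and Myc in each library, among pairs with at least 3 droplets holding both. At 1000 UMIs a droplet, Egr1 and Nr4a1 occurred together 16.3 times (Main1) and 5.27 times (Main2) as often in other B droplets as the product of their shares gives, with 7 and 10 droplets holding both at full depth, as all such counts here are. In follicular B droplets the ratios were 10.2 and 8.70, from 3 and 4 droplets. Nr4a1 and Myc had ratios of 5.61 and 5.56 in other B droplets, from 7 and 10 droplets, and Egr1 and Egr2 of 15.6 and 4.37, from 4 each. With Cd83, in other B droplets, the ratio was 3.0 and 3.07 for Nr4a1, 4.32 and 4.07 for Egr2, 2.64 and 1.62 for Egr1, and 1.69 and 2.34 for Myc. Over all genes, the 95th percentile of such ratios was 2.26 and 1.90 for Egr1 and 1.70 and 1.65 for Myc, so that Cd83 lay below it for Egr1 in Main2 and for Myc in Main1; it was not computed for Nr4a1 and Egr2. The ratios of Fos were lower with most members. With Fosb its ratio was 3.13 and 1.99 in other B droplets, and with Egr1 1.57 and 1.75. With Egr2 it was 3.60, from 4 droplets, in Main1 and 0.948, from 6 droplets, in Main2. With Dusp1 its ratio was 2.19 and 1.41 in the same droplets, with Junb 1.74 and 1.25 and with Jun 1.66 and 1.45, where the 95th percentile over all genes for Fos was 1.71 and 1.41. With Cd83 the Fos ratio was 1.05 and 0.798, and with Myc 1.26 and 0.610. In follicular B droplets Fos and Myc were together less often than the product gives, at 0.283 and 0.422, from 2 and 3 droplets. The genes with the highest Fos ratios in other B droplets of Main2 were Prg2, Igkv3-7, Clec12a, Ccl6 and Alox5ap. Ccl6 also led in Main1, and Clec12a, Ccl6 and Alox5ap are best known from myeloid cells. Follicular B droplets had other leading genes for Fos. They were Baz2a, Tut7, Arap2, Snhg9 and Plpbp in Main1, and Igkv4-74, Riok3, Egr1, Crtc3 and Mapre2 in Main2. Egr1, with 31 and 65 UMIs, had ratios of 0.459 and 2.21 with Fos there. The 95th percentile for Fos in that gate was 1.67 and 1.43. These ratios are descriptions of sparse counts from shared libraries and carry no test.

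**Figure D5:**
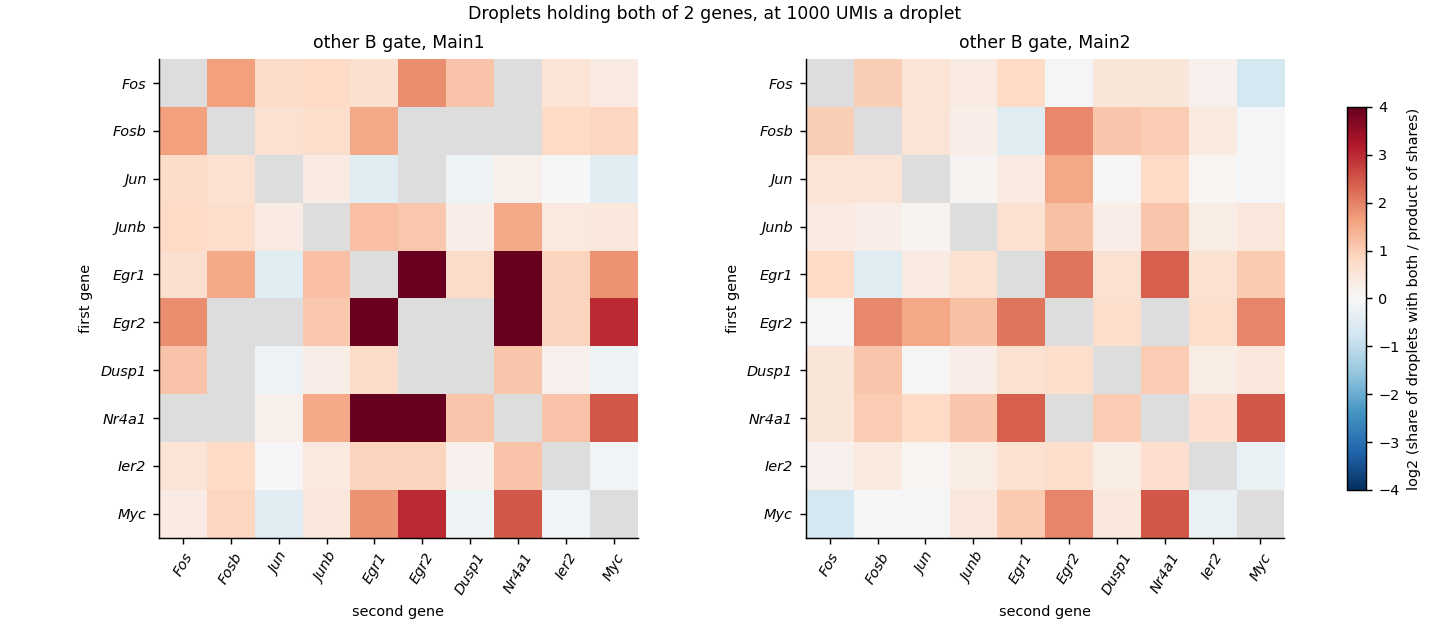
Log2 of the share of other B droplets holding both genes over the product of their shares, at 1000 UMIs a droplet, for all pairs of the 10 genes (rows and columns) in Main1 (left) and Main2 (right); grey marks the diagonal and pairs with under 3 droplets, and the darkest red stands for 4 and above. Egr1 with Egr2, Egr1 with Nr4a1 and Nr4a1 with Myc are dark in both libraries, Egr2 is also dark with Fosb in Main2, and Fos with Dusp1, Junb and Jun is paler.

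The genes most like Fos, Nr4a1, Egr1 and Myc in their pattern over gates and libraries differed. Likeness was Pearson's r of log2(CPM + 10) over the 22 sums of gate and library, among 6160 genes with 200 or more UMIs, sums that share their libraries and differ in depth. Nearest to Fos were Plbd1 (0.90), Dusp1 (0.90), Skap2 (0.89), Sirpb1c (0.89) and Cst3 (0.89). Nearest to Nr4a1 were Stard3nl (0.87), Snx10 (0.82), Nabp1 (0.82), Otulinl (0.82) and Ifngr1 (0.81). Nearest to Egr1 were Birc2 (0.79), Acox3 (0.79), H2-M3 (0.78), Zfp263 (0.77) and Psme1 (0.76). Myc was nearest to Gm10073 (0.83), the ribosomal protein genes Rpl12 (0.81), Rplp1 (0.80) and Rpsa (0.80), and Dtd1 (0.79). Fos and Myc themselves had an r of -0.66.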

How the data were processed

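The deposited gene table held whole-number counts, UMIs per gene and droplet, and the antibody table held tag counts, neither normalized. Cell Ranger 3.0.2, bcl2fastq and the mm10 build are listed in the submitters' processing notes. The rarest gene was seen in 15 droplets and mitochondrial genes numbered 0, which points to a filter applied earlier. Of 11713 gene identifiers 31 matched no symbol. Library depth was 7964712 UMIs (Main1) and 10174799 UMIs (Main2).

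Droplets were gated on centred log-ratios of each antibody with a Gaussian mixture of 2 components (scikit-learn 1.9.0), positive at a posterior above 0.5 and above the lower component's mean. That second condition was added after the antibody values were seen, since 112 droplets in the low tail of Ly6G had passed. UMIs were summed per library and gate (10 or more droplets in each library) and fitted together with edgeR 4.0.16 (TMM, quasi-likelihood, genes with 50 or more UMIs, Benjamini-Hochberg over all genes tested, threshold 0.05) in R 4.3.3. Both gates of a comparison come from the same libraries, so the library was a block in the fit. With 2 sums per gate the spread was pooled over 22 sums, with 10 residual degrees of freedom; the CD44 and IgM subgates had fits of their own with 1 residual degree of freedom and rest on the spread shared across genes. Scripts were tested on simulated data. CPM scales a gene's UMIs to 1000000 UMIs of the sum. Confidence limits are at 95% and cover counting error only. A size of 1.5-fold was used where no test was possible.

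The members and the gene lists were chosen with earlier results of these data known. All 10 members are named, and from each related list up to 4 called genes with the largest differences; some called genes of the lists are given only by count. Genes most like a member are the 5 with the highest r. Alternatives were another scaling, DESeq2 1.42.0, no filter, no block, other gates, a limit of 4000 UMIs, other thinning, each library left out, and lymphocyte gates without myeloid marker UMIs. DESeq2 was used only as such an alternative.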

Additional observations from a re-analysis of the deposited data

Results flagged for a closer look

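A pair of differences between the libraries went against the other gates; neither was tested. Jun had 5 UMIs in the neutrophil gate of Main1 and 0 in Main2, a ratio of 0, while Main2 was higher for Jun in the other 10 gates. Ier2 was 0.524 times as high in Main2 as in Main1 in the macrophage gate (95% counting interval 0.307 to 0.897), at 509 and 267 CPM, while Main2 was higher for Ier2 in the other 10 gates.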

How the results depend on the processing

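Of 80 pairs of a member and a tested comparison 32 were called, and 17 of these stayed called in every setting with a test. The 32 include Fos between the CD44 subgates, which met the filter only through its high subgate and is not among the 17. None of the 32 changed direction in a setting with a test. Values that were not called did in part, such as Fos in the CD4 T comparison. In the marginal zone comparison 3 members were called with DESeq2, 2 with no replicate block and 3 among droplets under 4000 UMIs, in place of 5. In the CD4 T comparison 1 was called with no replicate block, in place of 3. Between CD8 T and CD4 T gates 1 was called, Junb each time, with no filter on low counts, with log-ratios taken within each droplet, under 4000 UMIs, and with IgM and IgD added to the B-lineage antigens. Between the CD44 subgates, 0 were called with DESeq2, 0 with no block, 1 with log-ratios within each droplet, 0 under 4000 UMIs and 1 with IgM and IgD added, in place of 2, of which Fos met the filter only through its high subgate. With 1 library left out of both gates, where the lone sum is assumed to vary like the other gates, the counts were 2 to 2 (marginal zone), 1 to 2 (CD4 T), 3 to 4 (neutrophil), 4 to 5 (monocyte), 1 to 4 (macrophage) and 6 to 7 (dendritic). The cause of these changes was not tested, apart from the fewer sums in the last. Over all tested genes, 514 calls in the marginal zone comparison became 295 with no block and 245 and 101 without Main1 and Main2. The 164 CD44 calls became 4 with DESeq2 and 37 with no block, and the 44 IgM calls became 0 with either. Fos was at least 1.5-fold higher in Main2 in 11 of 11 gates, in 10 with log-ratios within each droplet, in 9 of 10 under 4000 UMIs, where the erythroid gate had too few droplets, and in 9 of 11 in the check without myeloid marker UMIs, which was added after seeing the data, as was the one on the posterior alone. The share of follicular droplets with Fos was 7.87% at 1000 UMIs, 12.2% with no thinning and 9.57% at 1500 UMIs. Depth limits Egr2, Fosb and Nr4a1 most: a gate with 0 UMIs allows up to 3 counts at a one-sided limit of 95%.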

Other observations

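Some droplets outside the gates also held these genes. The 542 ungated droplets had Fos at 71.0 CPM in Main1 and 167 CPM in Main2, and 11.3% of them held UMIs of 5 or more members. The 221 T droplets that were neither CD4 T nor CD8 T had Junb at 320 CPM in Main1 and 590 CPM in Main2, a ratio of 1.84 (95% counting interval 1.52 to 2.24). Dusp1 in the same droplets was at 23.0 and 90.4 CPM.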
